A study of Mus musculus with 4 samples.

Results

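The amino acid transporters are the membrane proteins of the solute carrier families SLC1, SLC3, SLC6, SLC7, SLC36, SLC38 and SLC43. Members were the protein-coding rows of the count table whose symbol is one of these family names followed by a and a number. The rule found 63 genes among 54752 rows: 7 of Slc1, 2 of Slc3, 21 of Slc6, 15 of Slc7, 4 of Slc36, 11 of Slc38 and 3 of Slc43. No measured value entered the rule. RNA came from mouse abdominal aortic grafts collected 4 weeks after transplantation, with 2 libraries labelled ALLO and 2 labelled ISO. The series title describes an allograft in chronic rejection, which is the ALLO group, and the labels do not spell out ISO. Donor and recipient strain, age and sex were not given in the sources used here. Nor was it stated whether replicate libraries are different animals, and every p-value below therefore reflects variation among these libraries only. The ALLO libraries differ widely in some genes, such as the nerve gene Dbh with 20 and 794 counts, and the source of that difference was not tested. The ISO libraries differ in X- and Y-linked RNA, as given below, so they are not repeats of the same tissue. No treatment other than the transplantation is named for either group.

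Amino acids cross membranes only on carriers, and each carrier takes a set of substrates that fits its family. In the heteromeric carriers, a light chain of the SLC7 family moves the substrate and is held at the cell surface by a heavy chain, Slc3a2 (4F2hc or CD98) or Slc3a1 (rBAT). Other SLC7 members carry arginine and lysine without a heavy chain. The SLC1 family carries glutamate, or alanine, serine, cysteine and glutamine. SLC38 and SLC36 carry small neutral amino acids with sodium or protons, some of them in the lysosome membrane, and SLC43 holds further leucine-type carriers. The SLC6 family includes carriers of neurotransmitters, taurine, betaine and creatine beside those of amino acids, so several members move substrates that are not protein amino acids. Activated leukocytes are known to raise several of these carriers when they start to grow and divide.

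Of the 63 members, 8 had no count in any library (Slc6a3, Slc6a11, Slc6a14, Slc6a16, Slc6a18, Slc6a21, Slc7a9 and Slc7a12). A further 12 were below the filter on low counts, among them Slc1a7, Slc3a1, Slc6a5, Slc6a13, Slc7a13, Slc7a15, Slc36a3, Slc38a5 and Slc38a8. The remaining 43 were tested with edgeR's quasi-likelihood test, with Benjamini-Hochberg adjustment over the 16498 genes tested and a threshold of 0.05. In ALLO grafts 16 of these rose and 7 fell, while 20 did not pass. The 23 called members are 53.5% of those tested (37.2% higher, 16.3% lower), and over all genes tested 33.1% were called (18.4% higher, 14.8% lower). A member expressed in 1 group alone reaches the test only through that group. The same counts are also given for the 30 members with a mean of at least 100 counts over the 4 libraries. That mean can be reached through 1 group as well, as by Slc7a8 (1254 and 1245 counts in ALLO grafts, 73 and 46 in ISO grafts). These counts therefore do not remove that dependence. Of these 30, 12 rose and 6 fell, or 60% called, against 36.9% of the 11765 genes of the same mean count. These shares are descriptions.

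Library totals were 18978538 and 20194854 counts in ALLO grafts, against 18488823 and 17532344 in ISO grafts. Members took 0.267% and 0.302% of all counts in ALLO grafts and 0.168% and 0.173% in ISO grafts, with 95% Wilson intervals no wider than 0.0068 percentage points, which cover counting error only. Summed over the 63 members, the level was 2685 ± 117 CPM (counts scaled to library size, with edgeR's TMM factors) in ALLO grafts and 1824 ± 6.49 CPM in ISO grafts (SD, n = 2 each), a ratio of 1.47. Among the 43 tested members, both ALLO libraries lay above both ISO libraries in 24, below them in 9, and the groups overlapped in 10. Over all genes tested the groups did not overlap in 72.5%, with ALLO above in 37.1% and below in 35.4%. For the 30 better counted members, the median absolute log2 change between groups was 1.38, while the median absolute difference between replicates was 0.4 in ALLO grafts and 0.3 in ISO grafts. Over all genes of the same mean count the median change was 0.62, and the replicate differences were 0.31 in ALLO grafts and 0.21 in ISO grafts, so the members varied more on each of these measures. The median signed log2 change was 0.3 for the 30 members, and 1.09 for the 43 tested, beside 0.03 over all genes tested. The value for the 43 was 0.65 without either ALLO library and 0.61 with halved counts.

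**Figure D1:**
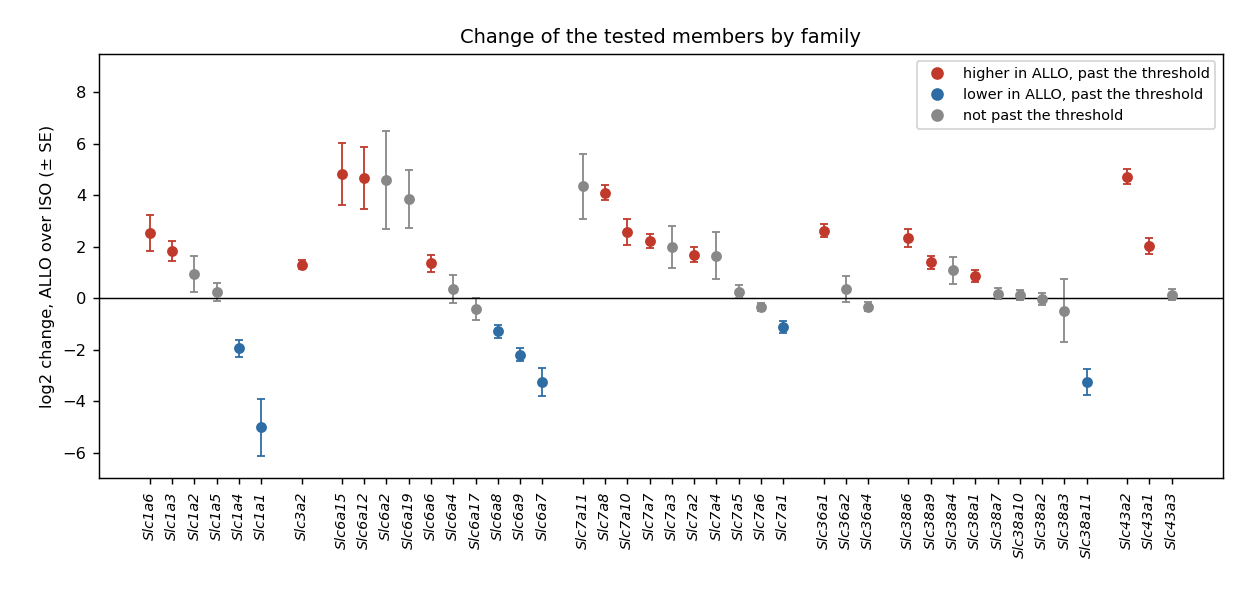
Log2 change (ALLO over ISO, y axis, error bars ± SE from edgeR) of the tested members, ordered by family and, within it, by size of change. Red points were higher and blue points lower past the threshold, and grey points did not pass; Slc7a14, with no count in ISO grafts, is left out. Slc43a2 at 4.73 and Slc7a8 at 4.10 stand highest among the red points with small errors, and Slc38a11 and Slc6a7 lie below -3, with Slc1a1 lowest on few counts.

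The cell make-up of the libraries differed widely between the groups. All 12 T cell markers were higher in ALLO grafts, with a summed level of 498 and 430 CPM in ALLO grafts against 18.2 and 5.61 CPM in ISO grafts. Of 12 macrophage markers 10 were higher, summing to 9605 and 8389 CPM in ALLO grafts against 1136 and 447 CPM in ISO grafts. Of 11 B and plasma cell markers 3 were higher (3693 and 1311 CPM in ALLO grafts, 288 and 148 CPM in ISO grafts), and all 12 dividing cell markers were (431 and 320 CPM, against 30.3 and 19 CPM). Of 12 smooth muscle markers 11 were lower, at 1585 and 3025 CPM in ALLO grafts against 33739 and 33968 CPM in ISO grafts, and 5 of 10 endothelial markers were lower with 1 higher (796 and 923 CPM, against 1818 and 1810 CPM). None of these lists had a marker at 0 in all libraries; ISO replicate 2 had no count for 6 T cell and 4 B cell markers. The part of these cell types in the results below was not tested. In bulk tissue, fewer cells of a type and less RNA per cell cannot be told apart. ISO replicate 1 had 10647 Xist counts and no Ddx3y count, while the other 3 libraries had at most 8 Xist counts and at least 2105 Ddx3y counts. This is the pattern of female tissue in ISO replicate 1 and of male tissue in the other 3. The ISO libraries thus differ from each other in sex-linked RNA, and the part of sex in the results was not tested.

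The leucine-type (system L) carriers of large neutral amino acids held the largest called rises among the 30 well counted members, in Slc43a2 (LAT4) and Slc7a8 (LAT2). By mean level per length, Slc43a2 had rank 8 of the 63 members in ALLO grafts and rank 26 in ISO grafts, and Slc7a8 rank 10 against rank 27. Slc43a2, on chromosome 11 (75531694 to 75577575, plus strand, mm10), carries branched-chain amino acids, phenylalanine and methionine. Counts were 3764 and 4409 in ALLO grafts and 154 and 97 in ISO grafts. Its level was 197 ± 4.75 CPM in ALLO grafts and 7.43 ± 2.23 CPM in ISO grafts (SD, n = 2 each), a log2 change of 4.73 ± 0.30 (SE) or 26.5-fold, with edgeR adjusted p = 0.00216. Both ALLO libraries lay far above both ISO libraries, and the ALLO libraries differed little from each other.

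Slc7a8, on chromosome 14 (54722209 to 54781946, minus strand), is a light chain that exchanges neutral amino acids. It had 1254 and 1245 counts in ALLO grafts against 73 and 46 counts in ISO grafts. The log2 change was 4.10 ± 0.30 (SE), 17.1-fold, with edgeR adjusted p = 0.00286, and the groups were far apart. Slc43a1 (LAT3), a uniporter of leucine and related residues, had 509 and 652 counts in ALLO grafts against 138 and 90 in ISO grafts. It rose 4.13-fold (edgeR adjusted p = 0.00903) without overlap. Slc43a3, the remaining gene of the family, is known as a carrier of purine nucleobases rather than amino acids; it had 3344 and 3128 counts in ALLO grafts against 2606 and 2203 in ISO grafts and did not pass (log2 change 0.14, edgeR adjusted p = 0.654).

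Slc7a5 (LAT1), the leucine exchanger best known from activated lymphocytes and tumours, did not pass. It had 847 and 703 counts in ALLO grafts against 459 and 601 in ISO grafts. After scaling the groups overlapped, with 43.5 and 31.9 CPM in ALLO grafts and 26.8 and 36.3 CPM in ISO grafts, and its log2 change was 0.26 ± 0.26 (SE; edgeR adjusted p = 0.5). The make-up of the group, compared per gene length in TPM (counts per exonic length, summing to 1000000 in each library), is given as a description. Slc7a5 held 24.2% and 19.1% of the summed TPM of the 4 leucine-type carriers in ALLO grafts and 69.6% and 82.4% in ISO grafts. Slc43a2 held 39.8% and 44.3% in ALLO grafts against 8.62% and 4.91% in ISO grafts. The sum of the 4 was 112 and 142 TPM in ALLO grafts, against 29.3 and 37.9 TPM in ISO grafts.

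Slc3a2, the heavy chain that these light chains need at the cell surface, also rose. It had 4454 and 4517 counts in ALLO grafts and 1524 and 1420 counts in ISO grafts, or 217 ± 16.9 CPM against 87.4 ± 2.41 CPM (SD, n = 2 each). The log2 change was 1.31 ± 0.19 (SE; edgeR adjusted p = 0.00901), and the groups did not overlap. Without ISO replicate 1 the adjusted p was 0.0555 and without ISO replicate 2 it was 0.0768, at 2.51-fold and 2.4-fold against 2.48-fold with all 4 libraries. The other heavy chain, Slc3a1, known from kidney and gut, had at most 6 counts in any library. Slc3a2 had the highest mean level per length of the members in ALLO grafts (167 TPM) and rank 5 in ISO grafts (74.4 TPM). The promoter windows of the most changed leucine-type carriers, of the heavy chain and of Slc38a11, the most reduced of the well counted members, are shown so that they can be compared with those holding a motif further on. They are RefSeq windows on GRCm38.p6 from 250 bases before to 50 bases after the annotated start, and none of them holds any of the 4 motifs searched.
Slc43a2, chr11:75531444-75531743, plus strand: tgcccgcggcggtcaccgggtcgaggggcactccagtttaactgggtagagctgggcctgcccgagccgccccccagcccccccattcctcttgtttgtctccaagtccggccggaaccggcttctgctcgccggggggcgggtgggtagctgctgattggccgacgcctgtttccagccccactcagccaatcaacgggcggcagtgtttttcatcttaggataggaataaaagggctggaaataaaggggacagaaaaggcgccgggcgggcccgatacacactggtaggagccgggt
Slc7a8, chr14:54781837-54782136, minus strand: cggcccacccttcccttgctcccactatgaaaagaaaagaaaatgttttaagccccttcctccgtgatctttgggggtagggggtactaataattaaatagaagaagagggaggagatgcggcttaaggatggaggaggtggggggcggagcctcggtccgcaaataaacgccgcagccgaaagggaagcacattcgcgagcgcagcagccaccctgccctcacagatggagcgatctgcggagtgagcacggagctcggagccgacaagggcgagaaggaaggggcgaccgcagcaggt
Slc3a2, chr19:8713848-8714147, minus strand: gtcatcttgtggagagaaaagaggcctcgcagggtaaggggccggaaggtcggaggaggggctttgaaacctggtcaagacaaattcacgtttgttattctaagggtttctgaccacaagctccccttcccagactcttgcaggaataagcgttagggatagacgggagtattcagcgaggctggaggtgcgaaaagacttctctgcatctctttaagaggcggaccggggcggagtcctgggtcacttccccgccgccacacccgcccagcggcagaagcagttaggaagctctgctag
Slc38a11, chr2:65363977-65364276, minus strand: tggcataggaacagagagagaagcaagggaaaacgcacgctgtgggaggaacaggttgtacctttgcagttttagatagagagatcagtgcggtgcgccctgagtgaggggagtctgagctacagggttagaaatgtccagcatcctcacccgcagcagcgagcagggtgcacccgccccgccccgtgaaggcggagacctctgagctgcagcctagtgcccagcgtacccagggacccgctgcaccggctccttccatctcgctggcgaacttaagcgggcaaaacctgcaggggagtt

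Of the 6 tested light chains 3 rose, none fell and 3 did not pass (50% called, against 33.1% over all genes tested). Slc7a7 (y+LAT1) exports arginine and lysine in exchange for neutral amino acids, and its loss causes lysinuric protein intolerance, in which macrophages are affected. It had 466 and 577 counts in ALLO grafts and 98 and 83 in ISO grafts, a log2 change of 2.22 ± 0.26 (SE; edgeR adjusted p = 0.00533). Its ALLO libraries were both above its ISO libraries by more than 4-fold in CPM. Slc7a6 (y+LAT2), which does the same exchange, did not pass: its counts were 872 and 916 in ALLO grafts against 881 and 956 in ISO grafts (log2 change -0.34 ± 0.17, edgeR adjusted p = 0.197). Slc7a10 (Asc-1), a carrier of small neutral amino acids, had 76 and 87 counts in ALLO grafts and 10 and 12 in ISO grafts (5.95-fold, edgeR adjusted p = 0.0179). That call was lost on leaving out any 1 of the 4 libraries, with adjusted p between 0.0566 and 0.0695 and a fold between 5.33 and 6.55. Opposite-strand exons of Lrp3 cover 17.9% of its exonic bases, and Slc7a10 is also known from fat cells. The 9 fat cell markers summed to 788 and 679 CPM in ALLO grafts against 1358 and 1108 CPM in ISO grafts, but Plin4 made that difference: without it the sums were 722 and 580 CPM in ALLO grafts and 781 and 473 CPM in ISO grafts, which overlap. Of the 8 tested, Cidec was higher, Plin4 and Ucp1 were lower, and the median log2 change was 0.28; their part in the Slc7a10 value was not tested.

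Per gene length, Slc7a8 held 28.5% and 27.9% of the summed TPM of the 6 light chains of Slc3a2 in ALLO grafts and 3.96% and 2.24% in ISO grafts. Slc7a6 held 21.7% and 22.5% in ALLO grafts and 52.3% and 50.9% in ISO grafts. The light chains summed to 105 and 128 TPM in ALLO grafts against 60.7 and 79.3 TPM in ISO grafts. Summed light chain over heavy chain was 0.697 in both ALLO libraries, and 0.853 and 1.02 in the ISO libraries. Slc7a7 and Slc7a8 lie 304.4 kb apart on chromosome 14 and both rose.

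**Figure D2:**
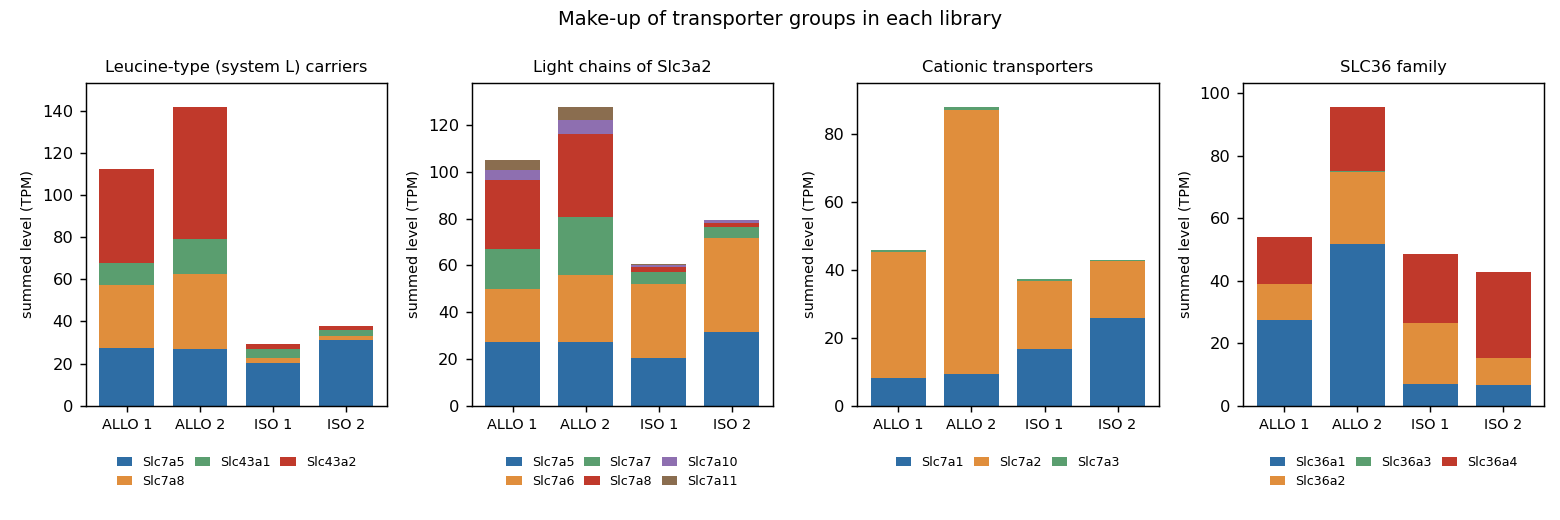
Summed level in TPM (y axis, from 0) of 4 transporter groups in each library, with each colour the share of 1 gene. Slc43a2 and Slc7a8 fill most of the added height of the leucine-type carriers in ALLO grafts, Slc7a2 that of the cationic transporters, and Slc36a1 more than 50% of the SLC36 column. In ISO replicate 2 the widest bands are Slc7a5, Slc7a6, Slc7a1 and Slc36a4.

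Slc7a11 (xCT), the light chain that imports cystine for glutathione in exchange for glutamate, had 467 and 537 counts in ALLO grafts and 40 and 0 counts in ISO grafts. Both ALLO libraries were more than 10-fold above ISO replicate 1, the library of the ISO pair with more macrophage marker RNA, and ISO replicate 2 held no read. The log2 change was 4.35 ± 1.26 (SE) and missed the threshold (edgeR adjusted p = 0.0515). It passed under 9 of the 16 alternatives, with adjusted p from 9.73e-05 without ISO replicate 1 to 0.176 by the DESeq2 Wald test. Its promoter window holds the C/EBP-ATF response element (TGATGNAA, searched on both strands), which the stress factor ATF4 is known to bind. The element begins 66 bases before the start on the plus sense and again, reversed, 47 bases before it. The windows of Slc7a7 and Slc1a4 hold it too and were picked for printing after that search. In Slc7a7 it begins 141 and 1 base before the start, and in Slc1a4, reversed, 4 bases before it. Capitals mark the element.
Slc7a11, chr3:50443564-50443863, minus strand: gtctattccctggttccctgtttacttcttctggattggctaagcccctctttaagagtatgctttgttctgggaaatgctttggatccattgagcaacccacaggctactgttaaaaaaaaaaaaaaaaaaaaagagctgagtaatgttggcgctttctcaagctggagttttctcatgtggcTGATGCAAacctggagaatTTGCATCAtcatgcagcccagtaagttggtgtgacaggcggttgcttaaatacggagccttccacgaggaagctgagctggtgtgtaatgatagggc
Slc7a7, chr14:54417895-54418194, minus strand: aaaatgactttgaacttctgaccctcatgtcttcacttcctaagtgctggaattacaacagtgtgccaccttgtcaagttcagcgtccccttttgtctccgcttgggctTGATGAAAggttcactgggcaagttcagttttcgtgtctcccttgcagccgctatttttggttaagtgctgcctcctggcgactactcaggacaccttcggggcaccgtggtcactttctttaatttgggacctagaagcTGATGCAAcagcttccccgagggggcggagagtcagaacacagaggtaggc
Slc1a4, chr11:20332664-20332963, minus strand: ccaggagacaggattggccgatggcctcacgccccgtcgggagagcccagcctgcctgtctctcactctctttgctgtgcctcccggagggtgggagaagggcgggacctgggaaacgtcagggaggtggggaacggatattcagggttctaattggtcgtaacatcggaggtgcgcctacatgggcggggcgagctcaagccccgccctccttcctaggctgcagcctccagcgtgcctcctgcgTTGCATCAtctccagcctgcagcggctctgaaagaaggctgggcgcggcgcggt

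Of the 63 members 45 had at least 1 RefSeq promoter window, and 18 had none, among them Slc6a6, Slc7a2, Slc7a5 and Slc6a8. The element TGATGNAA was present in 4 of the 45 (8.89%; Slc6a21 is the fourth), and in 4.51% of all 27025 genes with a window. Of the 3 genes printed with it, Slc7a7 rose, Slc1a4 fell and Slc7a11 did not pass. The E-box CACGTG was present in 9 of the 45 members (20%) against 8.09% of all genes. Of these, Slc36a1 with 2 copies, Slc43a1 and Slc1a6 rose, and Slc38a7 and Slc7a14 did not pass. Slc1a7 and Slc38a5 were below the filter, and Slc6a3 and Slc6a16 had no count in any library. The antioxidant response element core TGACNNNGC was present in 9 (20%) against 14%, and the STAT site TTCNNNGAA in 4 (8.89%) against 9.55%. A gene was counted if any of its windows held the motif. The 45 members had 66 windows and the 27025 genes had 32851, so members had more windows per gene. A match is a description of letters in these windows.

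Of the 5 cationic carriers, all tested, 1 rose, 1 fell and 3 did not pass (40% called, against 33.1% over all genes tested). Slc7a2 (CAT2), the arginine carrier known from activated macrophages, had 2833 and 4959 counts in ALLO grafts and 1123 and 807 counts in ISO grafts. Its log2 change was 1.70 ± 0.30 (SE; edgeR adjusted p = 0.0144) with no overlap, and without ISO replicate 2 the adjusted p was 0.0574. Slc7a1 (CAT1), the arginine and lysine carrier of most tissues, had 794 and 746 counts in ALLO grafts against 1165 and 1535 counts in ISO grafts. Its log2 change was -1.11 ± 0.23 (SE; edgeR adjusted p = 0.0217). The groups did not overlap, but the call was lost on leaving out ISO replicate 2 (adjusted p 0.0935), ALLO replicate 1 (0.0502) or ALLO replicate 2 (0.0738). Slc7a2 held 80.5% and 88.4% of the summed TPM of Slc7a1, Slc7a2 and Slc7a3 in ALLO grafts and 54.4% and 39.8% in ISO grafts. Slc7a3, a low cationic carrier, had 24 and 25 counts in ALLO grafts against 8 and 2 in ISO grafts, and Slc7a4, an SLC7 member of unclear substrate, had 11 and 38 counts against 3 and 9; neither passed.

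The enzymes that use arginine, tryptophan and ornithine were taken as a list of 17 genes. Of the 15 tested, 4 rose and 1 fell, or 33.3% called, which is near the 33.1% over all genes tested, and the median log2 change was 1.17. Ass1, which remakes arginine from citrulline, had 1679 and 3328 counts in ALLO grafts against 253 and 164 in ISO grafts (log2 change 3.26 ± 0.38, edgeR adjusted p = 0.00544). Kynu, an enzyme of tryptophan breakdown, had 203 and 117 counts in ALLO grafts against 0 and 1 in ISO grafts (edgeR adjusted p = 0.00588). Nos2, the inducible nitric oxide synthase that consumes arginine, had 1465 and 2678 counts in ALLO grafts against 178 and 24 in ISO grafts (log2 change 4.05 ± 0.91, edgeR adjusted p = 0.0263). For each of these enzymes both ALLO libraries were above both ISO libraries. Srm, which makes spermidine, fell (log2 change -0.75, edgeR adjusted p = 0.0418). Arg1, named after its values were seen, had 474 and 653 counts in ALLO grafts against 91 and 4 in ISO grafts and did not pass (edgeR adjusted p = 0.0814).

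In the SLC1 family 2 of 6 tested members rose and 2 fell (66.7% called, against 33.1% over all genes tested). Slc1a5 (ASCT2), a glutamine exchanger with the highest mean level per length of the members in ISO grafts, did not pass. It had 3701 and 5535 counts in ALLO grafts against 2240 and 3982 counts in ISO grafts (log2 change 0.25, edgeR adjusted p = 0.626). Its libraries overlapped between the groups after scaling. Slc1a4 (ASCT1), which carries alanine, serine and cysteine, had 213 and 441 counts in ALLO grafts against 955 and 1052 in ISO grafts, a log2 change of -1.94 ± 0.33 (SE; edgeR adjusted p = 0.0132). Both ISO libraries were above both ALLO libraries. Slc1a4 held 5.08% and 7.34% of the summed TPM of the family in ALLO grafts and 29.4% and 21.5% in ISO grafts.

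Slc1a1, Slc1a2, Slc1a3 and Slc1a6 are the glutamate carriers of the family. Slc1a3 (GLAST) had 915 and 585 counts in ALLO grafts against 216 and 132 in ISO grafts (log2 change 1.84 ± 0.40, edgeR adjusted p = 0.024), without overlap. Without ALLO replicate 1 its adjusted p was 0.0651. Slc1a1 (EAAC1), a carrier of glutamate and cysteine, was nearly absent from ALLO grafts, with 0 and 4 counts against 72 and 39 counts in ISO grafts. Counted in read pairs, ISO over ALLO was 34.5 (95% interval 9.12 to 292, counting error only), with edgeR adjusted p = 0.0248. Without ISO replicate 1 the adjusted p was 0.0702. Exons of 4430402I18Rik on the opposite strand cover 42.6% of the exonic bases of Slc1a1, and the strand setting of the counting was not given in the sources used here, so these reads cannot be assigned with certainty. Slc1a6 (EAAT4) had 34 and 38 counts in ALLO grafts against 7 and 3 in ISO grafts (edgeR adjusted p = 0.0459), and 9 of the 16 alternatives lost that call, each of the 4 left-out libraries among them (adjusted p 0.127 to 0.281; 9.21-fold without ISO replicate 1 against 5.76-fold). Slc1a2, the main glutamate carrier of brain astrocytes, had 34 and 25 counts in ALLO grafts against 8 and 17 in ISO grafts and did not pass.

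In the SLC36 family 1 of 3 tested members rose (33.3% called), and in the SLC38 family 3 of 9 rose and 1 fell (44.4%). Over all genes tested 33.1% were called. Slc36a1 (PAT1), a proton-coupled carrier of small neutral amino acids at lysosomes and the cell surface, had 1288 and 2037 counts in ALLO grafts and 237 and 195 counts in ISO grafts. The log2 change was 2.63 ± 0.25 (SE), 6.19-fold, with edgeR adjusted p = 0.00395, and the groups were well separated. It held 50.5% and 54.3% of the summed TPM of its family in ALLO grafts and 14.3% and 15.7% in ISO grafts. Slc38a9, the lysosomal arginine sensor that acts on mTORC1, had 924 and 768 counts in ALLO grafts against 290 and 237 in ISO grafts (log2 change 1.40 ± 0.25, edgeR adjusted p = 0.015). Its groups did not overlap, and without ISO replicate 2 the adjusted p was 0.0547. Slc38a7, which moves glutamine out of lysosomes, had 643 and 808 counts in ALLO grafts against 457 and 578 in ISO grafts and did not pass (log2 change 0.18, edgeR adjusted p = 0.58). Slc36a4, a high-affinity proline and tryptophan carrier, and Slc36a2, a proline and glycine carrier that lies 19.3 kb from Slc36a1, did not pass either, with log2 changes of -0.33 (edgeR adjusted p = 0.193) and 0.35 (0.627).

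Slc38a2 (SNAT2) and Slc38a1 (SNAT1) are the sodium-coupled carriers of alanine, serine and glutamine at the cell surface, and their genes lie 44.5 kb apart on chromosome 15. Slc38a2, the member with most RNA in the SLC38 family, had 7564 and 6952 counts in ALLO grafts against 6569 and 5555 counts in ISO grafts. Its log2 change was -0.03 ± 0.23 (SE; edgeR adjusted p = 0.933), the groups overlapped, and the sign of that value depended on the scaling. Slc38a1 had 1870 and 1614 counts in ALLO grafts against 725 and 847 in ISO grafts, 1.81-fold, with edgeR adjusted p = 0.0375. The groups did not overlap, but leaving out ISO replicate 1, ISO replicate 2 or ALLO replicate 1 gave adjusted p of 0.19, 0.0953 and 0.0917. Slc38a6, a member whose substrates are less well settled, had 650 and 460 counts in ALLO grafts against 83 and 97 in ISO grafts (5.06-fold, edgeR adjusted p = 0.00884). Slc38a10 did not pass (log2 change 0.13, edgeR adjusted p = 0.629). Slc38a11, a little studied member on chromosome 2 (65316430 to 65364034, minus strand), went the other way, with 24 and 71 counts in ALLO grafts against 360 and 366 in ISO grafts. It fell by 3.26 ± 0.51 (SE) on the log2 scale, 9.61-fold, with edgeR adjusted p = 0.0106, and without ALLO replicate 2 the fold was 17.3. Both ISO libraries were alike and far above both ALLO libraries. Slc38a4, a liver carrier in mouse, had 116 and 64 counts in ALLO grafts against 38 and 32 in ISO grafts, and Slc38a3 had 75 and 4 counts against 36 and 58; neither passed. Slc38a5 had 34 and 8 counts in ALLO grafts and none in ISO grafts, and was below the filter. Its mean ALLO level was at least 2.96-fold higher over a floor of 6 counts per library. That bound rests on ALLO replicate 1, as ALLO replicate 2 was near the floor.

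The SLC6 family had 3 higher and 3 lower among 10 tested members (60% called, against 33.1% over all genes tested). Slc6a6 (TauT), which imports the osmolyte taurine, was its most abundant gene in ALLO grafts. It had 7060 and 10587 counts in ALLO grafts against 3542 and 2000 counts in ISO grafts, a log2 change of 1.36 ± 0.34 (SE; edgeR adjusted p = 0.0346). The groups did not overlap, and the call was lost without ISO replicate 2 (0.175) and without ALLO replicate 2 (0.0854). Slc6a8, the X-linked creatine carrier important in muscle, fell. It had 810 and 1386 counts in ALLO grafts against 2156 and 2112 in ISO grafts, a log2 change of -1.28 ± 0.25 (SE; edgeR adjusted p = 0.0191). The ISO libraries, which differ in Xist, were nearly equal at 126 and 127 CPM. Slc6a6 held 77.7% and 72.1% of the summed TPM of the family in ALLO grafts and 41.6% and 26.1% in ISO grafts, whereas Slc6a8 held 14.5% and 15.3% in ALLO grafts and 41.1% and 44.7% in ISO grafts.

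Slc6a9 (GlyT1), a glycine carrier, had 126 and 139 counts in ALLO grafts against 448 and 541 in ISO grafts, a log2 change of -2.20 ± 0.25 (SE; edgeR adjusted p = 0.00539). Its libraries were close within each group and far apart between them, although 30.2% of its exonic bases are shared with opposite-strand exons of B4galt2, Ccdc24 and Gm17114. Slc6a7, a proline carrier known from brain, had 26 and 51 counts in ALLO grafts against 187 and 399 in ISO grafts (9.53-fold lower, edgeR adjusted p = 0.0127). All ISO values exceeded the ALLO values, but the ISO libraries differed from each other: the fold was 6.05 without ISO replicate 2, and the adjusted p was 0.0539 without ALLO replicate 1. Smooth muscle markers fell beside the 7 reduced members, as given above, and whether these genes belong to smooth muscle was not tested.

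Some SLC6 members were called on few reads. Slc6a12 (BGT1), a betaine and GABA carrier, had 47 and 21 counts in ALLO grafts against 0 and 2 in ISO grafts. In read pairs, ALLO over ISO was 27.6 (95% interval 4.63 to 1122; edgeR adjusted p = 0.0383), and 6 of 16 alternatives lost the call, including leaving out ISO replicate 1 (0.121), ALLO replicate 1 (0.178) or ALLO replicate 2 (0.0641). Slc6a15, a neutral amino acid carrier known from brain, had 12 and 31 counts in ALLO grafts against 1 and 0 in ISO grafts. The ratio in read pairs was 17.9 (95% interval 2.89 to 737; edgeR adjusted p = 0.0348). That call was lost without ISO replicate 1 (adjusted p 0.0954), ISO replicate 2 (0.207) or ALLO replicate 1 (0.0824), with no filter (0.0526) and with the replicate block (0.0729), and the gene was not tested without ALLO replicate 2 or with halved counts. Both genes had ALLO libraries above ISO libraries, and both intervals are wide. Slc6a19, the gut and kidney carrier of neutral amino acids, had 14 and 26 counts in ALLO grafts against 2 and 0 in ISO grafts and did not pass. Slc6a17, a vesicle carrier of neurons, did not pass (log2 change -0.42, edgeR adjusted p = 0.506), nor did Slc6a4, the serotonin carrier, with 52 and 44 counts in ALLO grafts against 23 and 38 in ISO grafts.

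**Figure D3:**
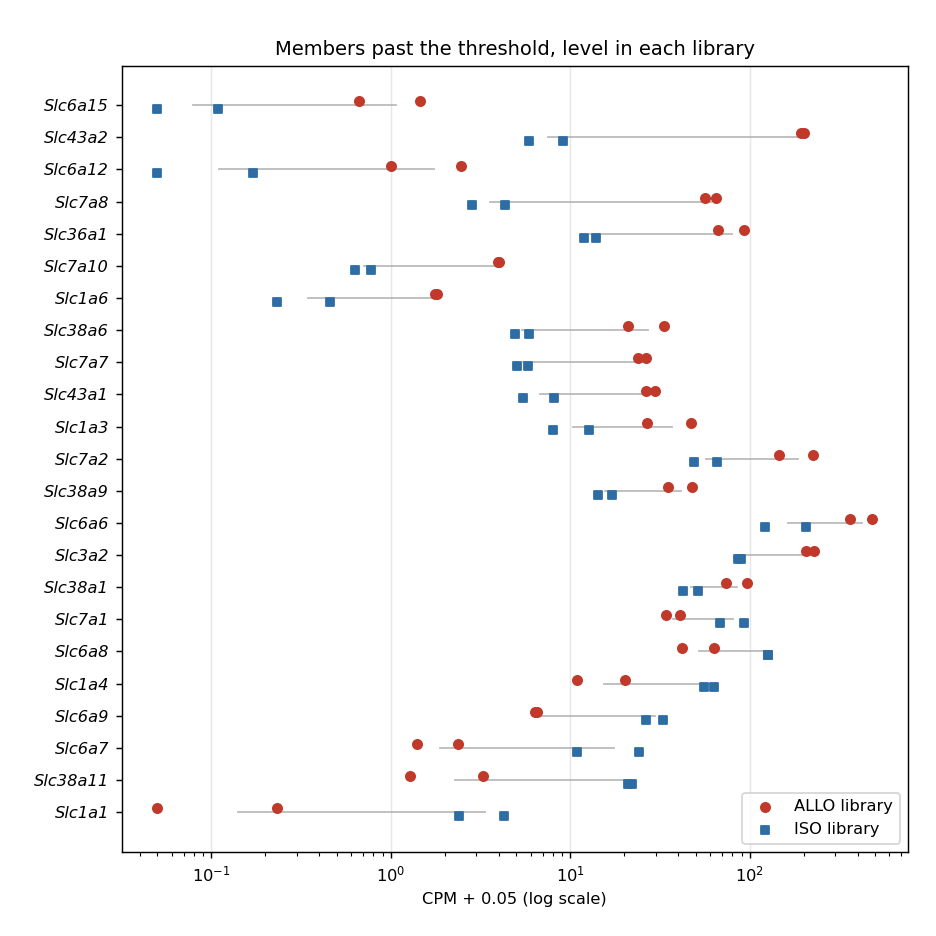
Level of the 23 members past the threshold in each library, as CPM + 0.05 on a log axis, with ALLO libraries as red circles and ISO libraries as blue squares; the grey line joins the group means. In each row both ALLO points lie on the same side of both ISO points. Rows run from the largest fitted rise, Slc6a15, to the largest fitted fall, Slc1a1, both of which rest on few counts.

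A pair of members was high in a single library. Slc6a2, the noradrenaline carrier of sympathetic nerves, had 8 and 726 counts in ALLO grafts against 17 and 6 in ISO grafts. Its log2 change of 4.6 ± 1.89 (SE) did not pass (edgeR adjusted p = 0.125), and without ALLO replicate 2 it was -0.70. Slc7a14, a lysosomal SLC7 member known from neurons and described here after its values were seen, had 12 and 142 counts in ALLO grafts and none in ISO grafts, at least 9.91-fold higher over a floor of 6 counts per library (edgeR adjusted p = 0.0508). Only ALLO replicate 2 was high for both. The same library held most of the RNA of 2 genes of noradrenaline synthesis. Dbh, which makes noradrenaline, had 20 and 794 counts in ALLO grafts and none in ISO grafts. Th, the first enzyme of that route, had 4 and 287 counts against none. Other markers of the list did not share this pattern. Stmn2 had 85 and 306 counts in ALLO grafts against 243 and 46 in ISO grafts, and S100b 64 and 98 against 60 and 32. Neither of the latter passed. The 10 Schwann cell and nerve markers summed to 122 and 243 CPM in ALLO grafts against 41.3 and 19.7 CPM in ISO grafts, with 4 of 8 tested higher and none of the 10 at 0 in all libraries. The part of nerve tissue in these 2 values was not tested.

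**Figure D4:**
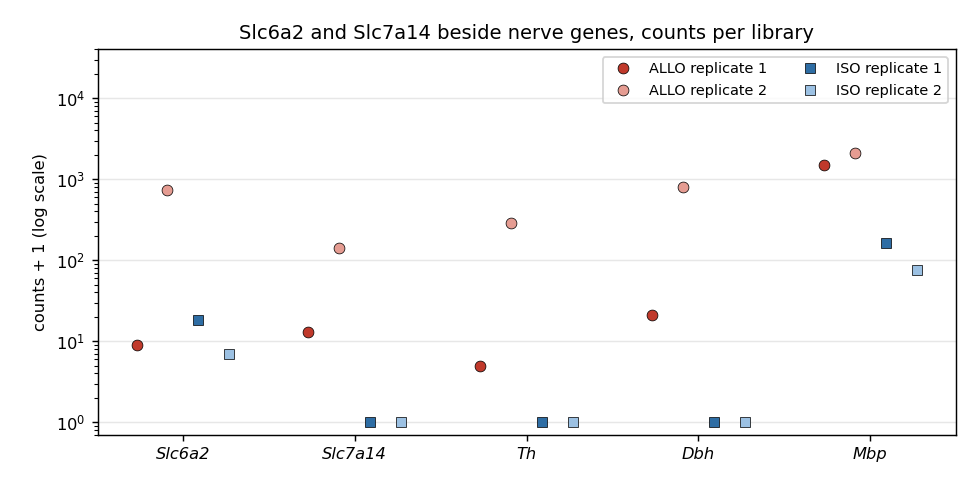
Counts + 1 per library (log axis) of Slc6a2 and Slc7a14 beside 3 nerve and Schwann cell genes. ALLO replicate 2 is the highest library for each gene, with 726 counts of Slc6a2 and 794 of Dbh, while the myelin gene Mbp is above both ISO libraries in ALLO replicate 1 as well.

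The order of mean levels per length differed between the groups. In ALLO grafts it ran Slc3a2 (167 TPM), Slc1a5 (148), Slc6a6 (139), Slc38a2 (107) and Slc43a3 (94.8), and in ISO grafts Slc1a5 (136 TPM), Slc38a2 (122), Slc43a3 (95.7), Slc38a10 (76) and Slc3a2 (74.4). Neighbours in these orders were not tested against each other. Slc1a5 alone had 106 and 190 TPM in the ALLO libraries and 88.4 and 184 TPM in the ISO libraries. It was above Slc3a2 (183 TPM) in ALLO replicate 2, and below Slc38a2 (122 TPM) in ISO replicate 1, so the first places hold for the means only. The SLC38 sum was 220 and 264 TPM in ALLO grafts and 236 and 267 TPM in ISO grafts, so the groups overlapped. Likewise the SLC1 sum was 127 and 219 TPM in ALLO grafts and 136 and 240 TPM in ISO grafts.

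Genes of the ATF4 response to amino acid shortage, regulators such as Atf4 and Eif2ak4 among them, were taken as a list with 25 genes read. The list includes no transporter of the families above. Ddit3, also on that list, was left out because its symbol is not unique in the count table. All 25 were tested, and 3 rose and 2 fell (20% called, against 33.1% over all genes tested) with a median log2 change of 0.26. Psat1 and Phgdh, enzymes of serine synthesis, rose (log2 changes 2.05 and 1.27, edgeR adjusted p = 0.00561 and 0.0347), as did Sesn2, a leucine sensor (1.98, 0.0109). Nupr1 and Atf5, both stress-induced regulators, fell (-1.47 and -1.71, edgeR adjusted p = 0.00795 and 0.0105). Atf4 itself and Asns, the asparagine synthetase, named after their values were seen, did not pass: Atf4 had 2502 and 2968 counts in ALLO grafts against 3260 and 3310 in ISO grafts (edgeR adjusted p = 0.0719), and Asns 412 and 227 counts against 104 and 57 (0.0516). Of 33 genes of amino acid sensing by mTORC1, the kinase complex that gates growth, 1 rose and 3 fell (12.1% called, also under 33.1%): Fnip2 (log2 change 0.80, edgeR adjusted p = 0.0478), Rheb (-0.99, 0.0174), Rragb (-2.09, 0.024) and Lamtor2 (-0.77, 0.0495). That count depended on the settings and was between 0 and 7.

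Of 16 tested enzymes of glutamine, glutamate and glutathione, 4 rose and none fell (25%, against 33.1% over all genes tested). They include Got1 and Gpt2, the aspartate and alanine transaminases (log2 changes 2.23 and 1.27, edgeR adjusted p = 0.00786 and 0.016), and Ggt5, which cleaves glutathione-type conjugates (2.54, 0.0199). Of 19 cytosolic aminoacyl-tRNA synthetases, which load tRNA with amino acids, 1 was higher (Vars, log2 change 1.18, edgeR adjusted p = 0.0132), or 5.26%, below the 33.1% over all genes. Among 9 tested carriers of other families, not all of them for amino acids, 6 rose and none fell (66.7%, against 33.1% over all genes tested). By adjusted p the first was Slc15a3, a lysosomal carrier of histidine and peptides (log2 change 4.74, edgeR adjusted p = 0.00326). Next were Mfsd12, a lysosomal cysteine importer (1.65, 0.00849), and Slc17a9, a vesicular nucleotide carrier also at lysosomes (3.26, 0.0129). Slc15a3 shares 28.1% of its exonic bases with opposite-strand Tmem132a.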

How the data were processed

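Each of the 4 libraries was made from total RNA depleted of ribosomal RNA, per the labels' protocols. The authors deposited raw counts per gene with gene coordinates and lengths on mm10; the submitters' processing notes name featureCounts, Subread 1.6.4, R 4.0.3 and DESeq2 1.30.0. The aligner, annotation release, strand setting and treatment of multi-mapping reads were not given in the sources used here. Low counts were mostly even (68.0% to 74.6% of values from 1 to 20, near 50% above 100), a pattern of both mates being counted, so the floor was set at 6 counts (3 pairs) per library. Names came from GENCODE M21 (54723 of 54752 IDs). Genes were filtered with filterByExpr (minimum count 10), scaled by TMM and tested with edgeR 4.0.16 (R 4.3.3), group as the only term; CPM are TMM-scaled, and TPM were computed from the counts and the deposited lengths. The test was checked on simulated data. Alternatives used limma 3.58.1 and DESeq2 1.42.0. Promoter windows are RefSeq's (GRCm38.p6). Protein identity between members was planned and not run.

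The members, gene lists and tests were chosen with earlier results of these data known. Named members are those past the threshold, with counts in every library, and those with a mean of at least 100 counts. Other members are given by level and by whether they passed. Exceptions are Slc7a14 and Slc38a5, whose bounds, with the adjusted p of Slc7a14, were added after their values were seen. Slc38a3 is also given with log2 changes where its sign changed. Each pathway list gives up to 3 genes per direction by smallest adjusted p, and each marker list its counts and summed level. Promoters were taken for the most changed members in each direction and their heavy chain; Slc6a7 had none in the table used. The antisense rows Slc36a1os, Slc36a3os and Slc6a19os and the opposite-strand gene Slc7a6os are not transporters and were left out by the rule. Marker lists of fibroblasts, adipocytes, skeletal muscle, mast cells and platelets, and kidney, gut and liver epithelium were also read. Some genes of these lists and families are not reported here.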

Additional observations from a re-analysis of the deposited data

How the results depend on the processing

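The 23 called members were refitted under 16 alternatives, giving 365 comparisons; 322 kept the call, 43 lost it and none changed direction. The 9 members called under every alternative were Slc1a4, Slc6a9, Slc7a7, Slc7a8, Slc36a1, Slc38a6, Slc38a11, Slc43a1 and Slc43a2; Slc6a8 was called in all 15 where it was tested. Leaving out each library gave 10 to 12 higher members (16 with all 4), 5 to 6 lower (7), a median log2 change of 0.65 to 1.17 (1.09), and 1512 to 2245 lower genes over the table (2437). The glmTreat test against 1.5-fold gave 1565 lower genes. Halved counts gave a median of 0.61. Scaling by library size only moved the median of all genes by 0.19 and the share of higher calls to 65.5% of all called genes, against 55.4%, and of called members to 73.1%, against 69.6%. The amino acid response list had 9 calls by the DESeq2 Wald test (5 as reported), the arginine list 8 (5), the glutamine list 8 (4) and the tRNA synthetase list 2 (1), which was also 2 by library size only. The mTORC1 list (4) had 7 by library size only, 2 with no filter, 2 with a mean count of 10 or more, 1 by glmTreat and 2 with the replicate block. The other carriers (6) had 3 by glmTreat. Without 1 library each, the lists had 0 to 5 (mTORC1), 2 to 6 (arginine), 0 to 1 (synthetases) and 3 to 4 (other carriers) calls. Members that did not pass and changed sign, with their range over the 4 fits that leave out a library, were Slc1a5 (-0.14 without ISO replicate 1, up to 0.73), Slc6a2 (-0.70 without ALLO replicate 2, up to 5.62), Slc6a17 (-1.09, and 0.07 without ALLO replicate 1), Slc36a2 (-0.19 without ISO replicate 2), Slc38a2 (-0.15 to 0.12, and 0.16 by library size only; 0.06 without ISO replicate 1), Slc38a7 (-0.01 without ISO replicate 1, up to 0.36) and Slc38a3 (-3.87, and 0.46 without ALLO replicate 2). The cause was not tested. The groups share replicate numbers but nothing pairs them (correlation of replicate differences 0.0974); with the replicate block 21 members were called, 19 of them shared with the 23. Members with 0 to 4 counts in a group have a fold set mainly by counting error.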

Other observations

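Fibroblast markers summed to 14586 and 19735 CPM in ALLO grafts against 7572 and 9640 CPM in ISO grafts, with none of 10 higher and 2 lower past the threshold. Most of these sums came from 2 collagen genes that did not pass. Col1a1 had 5918 and 10462 CPM in ALLO grafts against 1974 and 3357 CPM in ISO grafts. Col1a2 had 5548 and 7636 CPM against 2892 and 4609 CPM. The median log2 change of the 10 markers was 0.03. Adipocyte markers had 1 of 8 tested higher and 2 lower. Skeletal muscle markers stayed between 3.72 and 6.01 CPM in ALLO grafts and between 5.91 and 9.96 CPM in ISO grafts. Mast cell and platelet markers summed to 98.9 and 94.9 CPM in ALLO grafts against 61.7 and 38.6 CPM in ISO grafts, with 1 of 9 higher. Markers of kidney, gut and liver epithelium summed to 37.4 and 23.1 CPM in ALLO grafts against 19.5 and 24 CPM in ISO grafts, with Umod and Slc34a1 at 0 in all libraries. Slc7a6os, which lies on the strand opposite Slc7a6, had 626 and 621 counts in ALLO grafts against 495 and 424 in ISO grafts.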
